A study of Mus musculus with 2 samples.

Results

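The miR-15/16 cell-cycle family, with miR-195 and miR-497, was examined as 6 miRNA genes, Mir15a, Mir16-1, Mir15b, Mir16-2, Mir195a and Mir497b, chosen by name from 1973 miRNA gene rows. All 6 had a row, and all 6 were detected (10 counts or more per library). The counts came from small RNA below 30 nt of mouse forebrain at embryonic day 15.5, strain B6NCrl, healthy and untreated as far as the labels go. The only group had 2 biological replicates, of 78 pooled embryos (replicate 1) and 62 pooled embryos (replicate 2), with both sexes in each pool. Nothing in the design sets a condition against another, so the comparisons are between members of the family, between the family and other miRNA genes, and between the libraries. The labels do not say whether the pools were dissected or sequenced apart, and part of the spread between them could be technical.

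A miRNA is cut from a hairpin precursor and represses the messenger RNAs it pairs with. Pairing rests mainly on the seed, bases 2 to 8 of the mature miRNA. The miR-15/16 family is known as a brake on the cell cycle: its targets include cyclins D and E and the checkpoint kinases Chek1 and Wee1, and the human counterparts of Mir15a and Mir16-1 are often lost in chronic lymphocytic leukaemia. In mouse heart, miR-195 is tied to the withdrawal of muscle cells from the cell cycle after birth.

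The mature 5p arms are shown because they define the family. RefSeq (GRCm38.p6) held mature sequences for all 6 members. Each line runs 5′ to 3′ with the seed in capitals, and Mir322, a gene outside the family by name, is added because it carries the same seed.
miR-15a-5p (Mir15a): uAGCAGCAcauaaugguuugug
miR-15b-5p (Mir15b): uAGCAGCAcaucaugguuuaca
miR-16-5p (Mir16-1 and Mir16-2): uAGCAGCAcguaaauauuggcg
miR-195a-5p (Mir195a): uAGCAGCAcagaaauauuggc
miR-497a-5p (Mir497): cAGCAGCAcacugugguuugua
miR-322-5p (Mir322): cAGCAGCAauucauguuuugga

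All of these arms share the seed AGCAGCA. Beyond the seed they form likeness groups: miR-16-5p and miR-195a-5p were identical at 19 of 21 positions counted from the 5′ end, and miR-15a-5p and miR-15b-5p at 18 of 22. The arms of the neighbours Mir15a and Mir16-1 were identical at 16 of 22 positions, and those of Mir15b and Mir16-2 at 14 of 22. Of 1738 mature mouse miRNA entries in RefSeq, 11 (0.633%) had this seed, each from a gene of its own. They were those of Mir15a, Mir16-1, Mir15b, Mir16-2, Mir195a, Mir497, Mir322, Mir195b, Mir6342, Mir6353 and Mir6419.

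The row of Mir497b was used for Mir497. The annotated Mir497b hairpin (mm10, chr11:70234692-70234816, minus strand) covers all 84 bases of the Mir497 hairpin (chr11:70234717-70234800, plus strand), and Mir497 had no row of its own. Reads of Mir497 thus fell in the opposite-strand column of the Mir497b row, which was the column used. Any read on that strand in the rest of the 125-base interval, outside the Mir497 hairpin, would be counted there too. On the strand of Mir497b itself, whose annotated mature miRNA has another seed (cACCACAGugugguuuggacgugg), there were 4 counts in replicate 1 and 0 in replicate 2. A count of 0 in replicate 2 allows a level of up to 0.631 CPM. The Mir497 strand held 99.8% of the row's reads in replicate 1 (Clopper-Pearson 95% interval 99.5 to 99.95) and 100% in replicate 2 (interval 99.8 to 100). The other 5 members had no count on their opposite strand in either library.

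The genes of Mir16-1 and Mir16-2 give the same mature 5p arm, which bears on how their counts can be read. Their hairpins are shown with the longest run common to both in capitals, from the GENCODE M21 transcripts on mm10.
Mir16-1 (chr14:61631880-61631972, minus strand): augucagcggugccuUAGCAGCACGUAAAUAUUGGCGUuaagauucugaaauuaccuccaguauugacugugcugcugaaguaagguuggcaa
Mir16-2 (chr3:69009902-69009996, plus strand): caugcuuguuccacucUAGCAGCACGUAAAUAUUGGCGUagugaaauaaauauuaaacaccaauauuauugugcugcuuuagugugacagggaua

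The common run was 23 bases and held the whole of the 22-base miR-16-5p. A read of that arm, alone or with the next base of the hairpin, thus matches both genes. Reads placed at more than 1 locus were kept in a row of their own, which took 44.6% of the reads of replicate 1 and 42.4% of those of replicate 2. How many of them were miR-16-5p cannot be read from counts per gene, so the levels of Mir16-1 and Mir16-2 given here leave out an unknown number of reads. The 3p arms differ between the genes (miR-16-1-3p, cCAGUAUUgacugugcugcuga, and miR-16-2-3p, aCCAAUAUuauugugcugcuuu), and each was found in 1 hairpin. For Mir15a, Mir15b, Mir195a and Mir497, the longest run shared with any other annotated mouse miRNA hairpin was 13, 12, 16 and 12 bases.

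The genes lie as close pairs at separate loci. Mir15a (chr14:61632027-61632110) and Mir16-1 are 54 bases apart on the minus strand of chromosome 14, inside Dleu2, a long noncoding RNA gene. In GENCODE M21 Mir15a fell in an intron of Dleu2, and Mir16-1 overlapped an exon of at least 1 of its transcripts. Mir15b (chr3:69009772-69009835) and Mir16-2 are 66 bases apart on chromosome 3, both in an intron of Smc4, which encodes a subunit of condensin, the complex that compacts chromosomes for division. The identifier of Mir15b carries a later version number in GENCODE M21 than in the count table, so the interval counted for it may differ from the one printed. Mir195a (chr11:70235042-70235135, plus strand) lies 225 bases from the Mir497b hairpin on chromosome 11, with no host gene annotated there, and its nearest other gene, 0610010K14Rik, lies 70 bases away on the opposite strand.

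**Figure D1:**
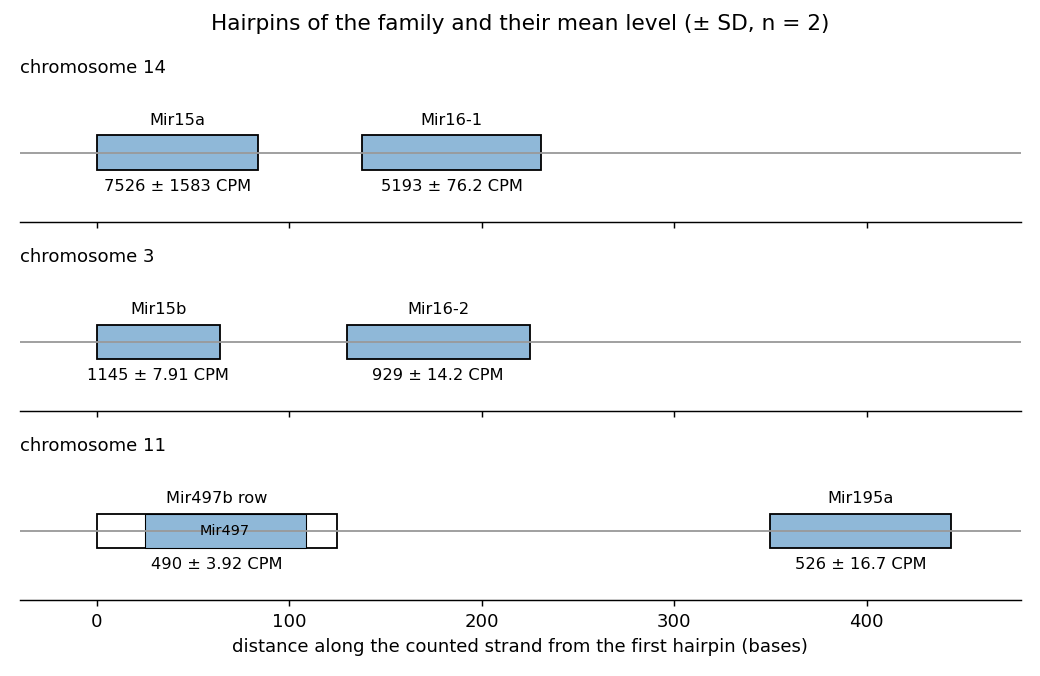
Hairpins of the family at their 3 loci, drawn to scale as distance in bases along the counted strand, with the mean level of each (CPM ± SD, n = 2 libraries). The open box is the Mir497b interval, whose opposite strand was counted, and holds the Mir497 hairpin. By uniquely placed reads, the chromosome 14 pair stands highest and the chromosome 11 pair lowest.

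Levels are in CPM, which sum to 1000000 over the counts on the strand of a miRNA gene in a library. A small RNA read covers the whole mature miRNA, so levels were compared between genes without division by hairpin length. Sense counts over gene rows came to 4464927 in replicate 1 and 4753555 in replicate 2, and intervals on counts cover counting error only, since nothing shows that PCR copies of a molecule were removed. Of the markers of the labelled tissue, 8 of 11 neural marker rows were detected, with Mir137 at 9092 ± 926 CPM (SD, n = 2), and the neural rows summed to 24376 CPM in replicate 1 and 24642 CPM in replicate 2. Single neural genes were called between the libraries: of the 11, 2 were called higher and 3 lower in replicate 1. These calls came from an exact binomial test with Benjamini-Hochberg adjustment over all genes. Among them were Mir137 (log2 ratio 0.21), Mir92b (-0.30) and Mir153 (-0.42). Since 36.2% of all 458 genes tested were called (17.0% higher, 19.2% lower), calls among 11 rows are no result about neural cells. All 3 Mir124a rows, neuronal markers with shared sequence, stood at only 1.05 to 2.80 CPM by uniquely placed reads. Of 4 skeletal muscle rows, Mir1a-1, Mir133a-1 and Mir133a-2 had no uniquely placed read, which does not show that these miRNAs were absent. Mir206 stood at 20.6 CPM in replicate 1 and 4.84 CPM in replicate 2. In bulk tissue, fewer cells of a type and less RNA per cell cannot be told apart.

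The family summed to 14738 CPM in replicate 1 and 16881 CPM in replicate 2, a mean of 15809 ± 1516 CPM (SD, n = 2). These sums were 1.47% of the counts of replicate 1 and 1.69% of those of replicate 2. The locus on chromosome 14 held most of the family's uniquely placed reads, 79.1% of its counts in replicate 1 and 81.7% in replicate 2. The chromosome 3 pair held 13.97% in replicate 1 and 12.4% in replicate 2, and the chromosome 11 pair 6.96% and 5.97% in the same order.

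Mir15a, the highest member by uniquely placed reads, had 28608 counts in replicate 1 and 41096 in replicate 2. These gave 6407 CPM (95% interval 6333 to 6482) and 8645 CPM (interval 8562 to 8729), a mean of 7526 ± 1583 CPM. Replicate 2 was the higher library, and the intervals did not overlap.

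Its neighbour Mir16-1 had 23425 counts in replicate 1 and 24427 in replicate 2, or 5246 and 5139 CPM. The mean was 5193 ± 76.2 CPM, with the libraries close to each other and both below Mir15a. Counted by uniquely placed reads, Mir15a exceeded Mir16-1 in both libraries, by 1.22-fold in replicate 1 and 1.68-fold in replicate 2.

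On chromosome 3, Mir15b had 5087 counts in replicate 1 and 5469 in replicate 2, or 1139 and 1151 CPM (mean 1145 ± 7.91 CPM). Mir16-2 had 4103 and 4464 counts in the same libraries, or 919 and 939 CPM (mean 929 ± 14.2 CPM). Both genes were nearly level between libraries. Counted by uniquely placed reads, Mir15b stood above Mir16-2 in each, by 1.24-fold in replicate 1 and 1.23-fold in replicate 2.

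On chromosome 11, Mir195a had 2403 counts in replicate 1 and 2446 in replicate 2, or 538 and 515 CPM (mean 526 ± 16.7 CPM). The Mir497b row, read on the strand of Mir497, had 2176 and 2343 counts, or 487 and 493 CPM (mean 490 ± 3.92 CPM). These were the lowest members, and by uniquely placed reads the fold between them was the smallest of the 3 pairs. Mir195a was the higher in both libraries, but in replicate 2 its share of the pair's counts was 51.1% with an interval of 49.6 to 52.5, which takes in equal counts.

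**Figure D2:**
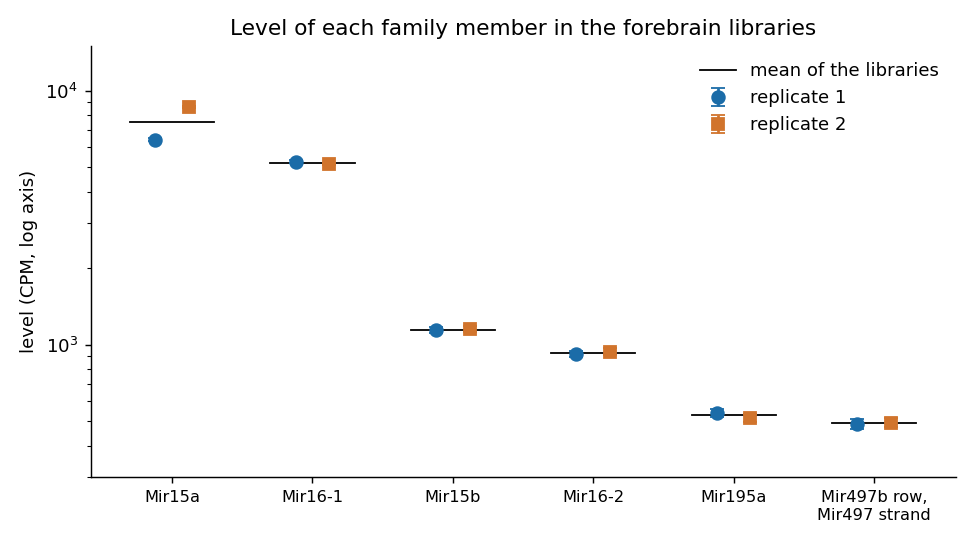
Level of each family member in CPM (log axis) in replicate 1 and replicate 2, with 95% Clopper-Pearson intervals and the mean as a line. The libraries lie together for every member except Mir15a, at 6407 CPM in replicate 1 and 8645 CPM in replicate 2.

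From the highest to the lowest member the mean level spanned 15.4-fold. The folds that follow each set a chromosome 14 gene against a gene at another locus. By uniquely placed reads, all of them exceeded those between neighbours at 1 locus. Genes of the other loci lay closer, as with Mir16-2 (929 CPM) and Mir195a (526 CPM). Mir15a was 5.62-fold above Mir15b in replicate 1 and 7.51-fold in replicate 2. Mir16-1 was 5.71-fold above Mir16-2 in replicate 1 and 5.47-fold in replicate 2, a ratio open to reads that match both genes. Mir15a was 11.9-fold above Mir195a in replicate 1 and 16.8-fold in replicate 2.

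Among the 371 detected genes, with Mir497b taken from its opposite strand, the members held ranks 25 (Mir15a), 37 (Mir16-1), 84 (Mir15b), 86 (Mir16-2), 113 (Mir195a) and 118 (Mir497b) by mean CPM. All 6 thus stood above the median of detected genes. The median level of the members was 1037 CPM, against 114 CPM over the detected genes. The ranks were the same among the 593 genes with at least 1 count in each library.

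**Figure D3:**
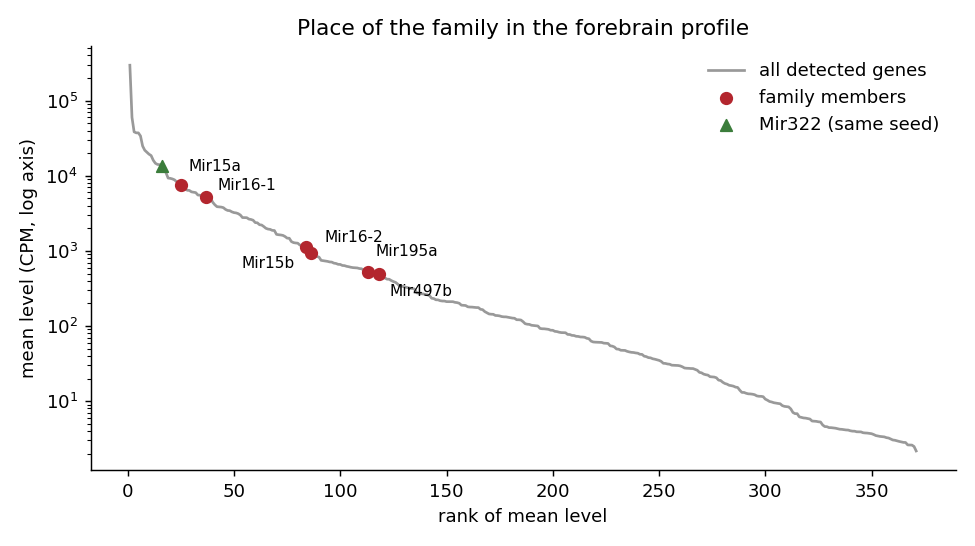
Mean level (CPM, log axis) against rank for the 371 detected miRNA genes, with the 6 family members and Mir322 marked. By uniquely placed reads, the pairs of the family sit together, at ranks 25 and 37, 84 and 86, and 113 and 118.

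The genes nearest to the members in level over the 2 libraries, by distance in log2(CPM + 1), lie at other loci. They were Mir30d for Mir15a (distance 0.27), Mir151 for Mir16-1 (0.056), Mir128-2 for Mir15b (0.035), Mir467c for Mir16-2 (0.23), Mir134 for Mir195a (0.14) and Mir300 for Mir497b (0.023). With 2 libraries of 1 tissue this is closeness in level only.

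The share of a pair's counts held by its miR-15 or miR-195 gene does not depend on library scaling. It does depend on reads placed at more than 1 locus, which the counts of Mir16-1 and Mir16-2 leave out. How far such reads would move the shares of Mir15a and Mir15b is unknown, and the intervals do not cover it. Mir15a held 55.0% of the Mir15a and Mir16-1 counts in replicate 1 (interval 54.6 to 55.4) and 62.7% in replicate 2 (interval 62.3 to 63.1). Mir15b held 55.4% of its pair in replicate 1 (interval 54.3 to 56.4) and 55.1% in replicate 2 (interval 54.1 to 56.04). Mir195a held 52.5% of its pair in replicate 1 (interval 51.02 to 53.9) and 51.1% in replicate 2. The intervals of the libraries overlapped for the pairs on chromosomes 3 and 11, and were apart for the pair on chromosome 14. No test of these shares was made.

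**Figure D4:**
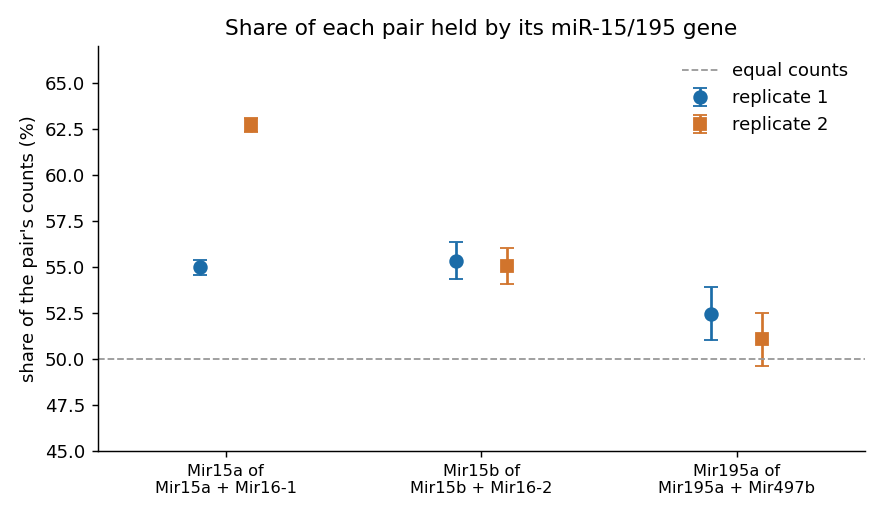
Share of each pair's counts (%) held by Mir15a, Mir15b or Mir195a in replicate 1 and replicate 2, with 95% Clopper-Pearson intervals. The axis starts at 45% and the dashed line marks equal counts. Shares are of uniquely placed reads. Mir15a moves to 62.7% in replicate 2, against 55.0% in replicate 1.

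The libraries were compared gene by gene, where both together held 10 counts or more, with the exact binomial test (two-sided) and Benjamini-Hochberg adjustment at 0.05. Of 458 genes tested, 36.2% were called, 17.0% as higher and 19.2% as lower in replicate 1. Genes of few counts, which the test calls less readily, are among them, so these shares are not matched to genes of high counts. Of the 6 members, Mir15a was called, lower in replicate 1, and 5 were not. Library scaling moved the overall split: 78 genes were higher and 88 lower in replicate 1, against 94 and 72 with TMM scaling, and 56 and 125 with Mir99a, the most abundant gene, left out of the total. With all reads as the total, 109 genes were higher and 68 lower. The test compares these libraries and carries no replicate check.

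Mir15a was lower in replicate 1 than in replicate 2 by a log2 ratio of -0.43 (interval -0.45 to -0.41 from counting error). By the exact binomial test the log10 of its adjusted p was -333, and at these counts the size of the ratio says more than its p. Of the 371 detected genes, 71 (19.1%) had a larger absolute log2 ratio, so the difference was not extreme over the whole profile. Among genes of like level it stood further out: of the 32 other genes within 2-fold of its mean CPM, 1 had a larger absolute ratio, and their median was 0.067.

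The other members had log2 ratios between -0.031 and 0.065. Mir16-1 was at 0.030 (exact binomial test, adjusted p = 0.0628), Mir15b at -0.014 (adjusted p = 0.773) and Mir16-2 at -0.031 (adjusted p = 0.496). Mir195a was at 0.065 (exact binomial test, adjusted p = 0.235) and Mir497b at -0.016 (adjusted p = 0.847). These p-values miss the threshold and do not show that the levels were equal. Mir15b, Mir16-2 and Mir497b were above 0 with TMM scaling and not called. For Mir195a counting error alone allowed -0.017 to 0.15, and for Mir16-1 0.0040 to 0.056. Mir16-1 was called higher in replicate 1 with TMM scaling (log2 ratio 0.067, adjusted p = 2e-06) and had the opposite sign with Mir99a left out (-0.030, not called), and its direction therefore turned with the scaling. The median absolute log2 ratio was 0.031 over the 6 members and 0.19 over the detected genes. Without Mir15a the family summed to 8330 CPM in replicate 1 and 8236 CPM in replicate 2.

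**Figure D5:**
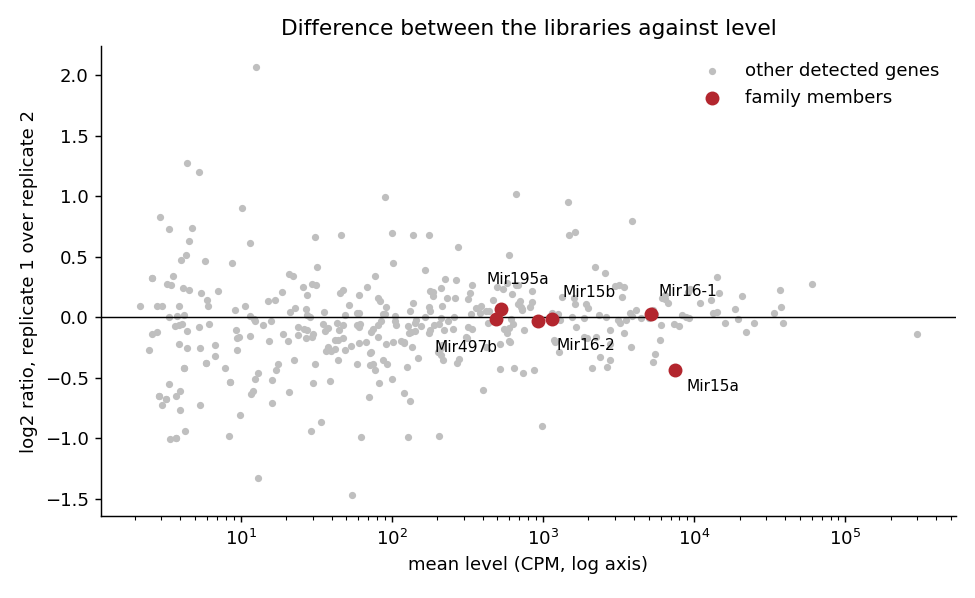
Log2 ratio of replicate 1 over replicate 2 against mean level (CPM, log axis) for the detected genes, with the family members marked. Mir15a lies at -0.43, and the other 5 members lie between -0.031 and 0.065.

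Single markers of other cell types were also called between the libraries. Over all 458 genes tested 36.2% were called, so calls among a few markers are no result about these cell types. The 3 erythroid genes summed to 140 CPM in replicate 1 and 165 CPM in replicate 2, with Mir144 called lower in replicate 1 (not with TMM, DESeq2 or all-read scaling), and none of them was at 0. The 5 immune rows summed to 233 and 246 CPM, with Mir155 called higher and Mir223 lower in replicate 1, and the Mir142b row was at 0 on its own strand in both libraries. Endothelial Mir126a stood at 15856 and 16377 CPM, and the liver miRNA Mir122 at 65.6 and 88.6 CPM, both called lower in replicate 1, but Mir126a was called higher with all reads as the total. The skeletal muscle miRNA Mir206 went the other way from Mir15a: with 92 counts in replicate 1 and 23 in replicate 2 it was called higher in replicate 1, by 2.07 on the log2 scale (adjusted p = 2.53e-11, exact binomial test). The part of these cells in the Mir15a difference was not tested.

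Mir322, which lies on the X chromosome (chrX:53054255-53054349, minus strand) and carries the family's seed, stood at 13346 ± 258 CPM, against 15809 ± 1516 CPM for the 6 members together. It had 60406 counts in replicate 1 and 62574 in replicate 2, or 13529 and 13164 CPM. The family sums in these libraries were 14738 and 16881 CPM by uniquely placed reads. Mir322 was 2.11-fold above Mir15a in replicate 1 and 1.52-fold in replicate 2. Its log2 ratio was 0.039, called higher in replicate 1 (exact binomial test, adjusted p = 7.17e-06), but with Mir99a left out of the total it was called lower (-0.020, adjusted p = 0.0373).

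The list of seed relatives held 11 genes, 10 with a row, and 5 were detected and tested, 2 called higher in replicate 1 and none lower, or 1 in each direction when the total excluded Mir99a, against 17.0% higher and 19.2% lower over all genes tested. Its median log2 ratio was 0.039, against -0.047 over all genes tested. Mir195b, Mir6342, Mir6353, Mir6419 and Mir1907 had no count in either library, so their levels were at most 0.672 CPM in replicate 1 and 0.631 CPM in replicate 2 by uniquely placed reads. Mir107, whose 3p arm reads the same bases from a start shifted along the seed (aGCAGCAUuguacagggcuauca), was at 1698 CPM in replicate 1 and 1523 CPM in replicate 2 and was called higher in replicate 1, where its level was up by 0.16 on the log2 scale (adjusted p = 2.71e-10, exact binomial test). Mir103-2 stood at 47.4 ± 5.17 CPM and Mir103-1 at 3.90 ± 0.134 CPM, and these genes share 1 mature 3p arm, so reads that match both cannot be told apart. Mir503, the neighbour of Mir322, has the seed AGCAGCG and stood at 134 ± 8.05 CPM.

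Other miRNAs tied to the cell cycle were taken from lists chosen with earlier results of these data known. Of 21 genes listed as brakes on division (let-7, miR-26, miR-29 and miR-34 genes), 19 had a row and were tested. Of these, 10 were called higher and 2 lower in replicate 1 (10 and 4 with Mir99a left out). With the full total, those called higher were let-7 genes apart from Mir26b and Mir34c, and those called lower were Mir29b-2 and Mir29c. Over all genes tested 17.0% were called higher and 19.2% lower, the background for these lists too. That background is not matched in depth to the lists, which hold genes of far higher counts that the test calls more readily. The median log2 ratio of the brakes was 0.23, against -0.047 over all genes tested. Mirlet7g (59954 ± 7963 CPM) and Mirlet7i (37334 ± 1629 CPM) were the highest. Of 17 proliferation-linked genes (Mir17-92, its paralogs, Mir221 and Mir222), all 17 had a row and were tested, 3 of them under the older symbols Mir18, Mir92-1 and Mir92-2, with 4 higher and 4 lower in replicate 1 (1 and 10 with Mir99a left out), a median log2 ratio of -0.024, and Mir17 (33935 ± 596 CPM) and Mir93 (18609 ± 627 CPM) on top. By uniquely placed reads, the family's sum of 15809 CPM was thus below the level of Mir17 or Mir93 alone. The sum leaves out an unknown number of reads of the arm that Mir16-1 and Mir16-2 share. These counts therefore cannot rank the whole family below either gene.

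To show what the shared seed pairs with, the complementary bases TGCTGCT were searched on the sense strand of the first 1000 bases of the longest annotated 3′ UTR of 8 known target genes, chosen after the data were seen. Shorter 3′ UTRs were searched whole. Ccnd3, Ccne1, Chek1 and Wee1 held a match, and Ccnd1, Ccnd2, Cdk6 and Bcl2 held none in this window. Of 10232 genes with a 3′ UTR of at least 1000 bases, 17.1% held a match, as did 2 of the 6 listed genes of that length. The first match in each gene is given with its flanks (mm10, GENCODE M21 transcripts), the complement of the seed in capitals.
Ccne1, cyclin E (chr7:38098016-38098045, minus strand): ctcttattttgtaagTGCTGCTatgtctat
Ccnd3, a D cyclin (chr17:47599279-47599308, plus strand): cactgttgctttgctTGCTGCTtagcttct
Chek1, a checkpoint kinase (chr9:36710283-36710312, minus strand): tcctggtgaatagagTGCTGCTatgtgaca
Wee1, a kinase that holds back mitosis (chr7:110142382-110142411, plus strand): gccactgtggtggtgTGCTGCTtctcattc

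Messenger RNA was not measured in these libraries, and a match is a description of the sequence, not a site shown to be used.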

How the data were processed

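Raw counts per miRNA gene were used as deposited by the authors, without normalization. Per the deposited README text they came from mm10 alignments with GENCODE M4 annotation. No source used here names the aligner or counter. The columns held counts on either strand, the gene's strand and the opposite strand. The 4 rows of unmapped, multi-mapping, featureless and ambiguous reads stayed out of totals. Unmapped reads were 14.3% of replicate 1 and 18.2% of replicate 2. Symbols and coordinates came from GENCODE M21, which matched 1894 of 1973 identifiers.

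CPM was the count over the library's sense counts. Mir497b was read on the opposite strand, also in the test. Ratios were formed as replicate 1 over replicate 2 on the log2 scale, after 0.5 was added to each count. The exact binomial test (scipy 1.17.1) was tried on counts simulated with counting error only, which cannot show how it does with further spread between libraries. A quasi-likelihood test needs a contrast and was not made. Alternatives were TMM (edgeR 4.0.16), DESeq2 1.42.0 size factors, other totals, count minimums, added counts and strands, and leaving out each replicate. All 6 members, the seed relatives, the gene nearest each member in level and the 2 highest genes of other lists were named. Members and lists were chosen with earlier results of these data known.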

Additional observations from a re-analysis of the deposited data

Results flagged for a closer look

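Mir497b had 4 counts in replicate 1 on its own annotated strand, a column that the comparisons did not use, above the 3 counts that a count of 0 allows. These counts came to 0.896 CPM, and replicate 2 had 0.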

How the results depend on the processing

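Mir15a was called lower in replicate 1 under every scaling, count minimum, added count and strand column run. With TMM scaling Mir16-1 (log2 ratio 0.067) and Mir195a (0.10) were called higher in replicate 1, and with DESeq2 size factors Mir16-1 (0.057). With all reads as the total Mir16-1 (0.094) and Mir195a (0.13) were called higher, and with at least 100 counts in total Mir16-1 (0.030). With Mir99a left out of the total Mir15b (-0.074) and Mir16-2 (-0.091) were called lower. By construction the totals change the expected share of counts per library, and the minimum the number of genes adjusted over. The family's summed level was 22523 CPM without Mir99a in the total, 5870 CPM with all reads as the total and 30951 CPM with the seed relatives added. Leaving out each replicate gave 14738 to 16881 CPM for the sum, 55.0 to 62.7% for the share of Mir15a, 55.1 to 55.4% for Mir15b and 51.1 to 52.5% for Mir195a. Counts of called genes ran from 156 to 181. The fewest counts of a member in a library were 2176. Reads placed at more than 1 locus limit Mir16-1 and Mir16-2, and so the shares of Mir15a and Mir15b. No paired analysis was possible because there was 1 group.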
